A study of Homo sapiens with 6 samples.

Results

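MyoD is a basic helix-loop-helix transcription factor that binds E-box sequences and can turn fibroblasts into cells with a muscle programme. VP64 is a strong transcriptional activation domain, and it was placed at the N-terminus of mouse MyoD through a flexible linker of serine and glycine to give VP64-MyoD. The comparison set out here is VP64-MyoD against wild-type mouse MyoD (WT-MyoD), and it asks how the transcriptome of the converted fibroblasts differed between the forms. It rests on 4 of the 6 libraries of the series, 2 with VP64-MyoD and 2 with WT-MyoD, taken by their labels. All genes of the count table were used, with transcripts summed per gene symbol, and 15281 of 23526 genes passed the filter on low counts.

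Messenger RNA was sequenced from cultures of 1 line of primary human dermal fibroblasts, so each culture shares 1 genetic background. In both groups the cells carried a Tet-ON lentivirus that joins the MyoD form to the red fluorescent protein dsRed-Express2 by a T2A peptide, were selected with puromycin, were grown to confluence and were then kept in doxycycline at 3 µg/mL and harvested at day 10. The remaining 2 libraries came from untreated fibroblasts, labelled as expressing no added gene. Whether those cells also went through transduction, selection or doxycycline is not in the labels, so they serve here only as a reference level. Values below are in CPM, counts scaled to a library of 1000000 by the trimmed mean of M values, 1 for each library with replicate 1 first. No called gene named below had overlapping libraries between the 2 MyoD groups.

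The 4 libraries held between 40997586 and 52860140 counts, in which each read pair counts as 2. The replicates of a group were not 1 library deposited again: the chi-square of their counts was 13.8 times its degrees of freedom for WT-MyoD, and 6.02 times for VP64-MyoD. Ribosomal RNA took between 0.997% and 1.80% of the counts, with overlapping ranges in the 2 groups. Fibroblast markers were present throughout: the 10 markers summed to between 30185 and 34385 CPM with WT-MyoD and between 31262 and 33867 CPM with VP64-MyoD. The untreated libraries summed to between 44236 and 46616 CPM. Most of each sum was COL1A1 and COL1A2, so near-equal sums do not mean unchanged markers. Of the 10, 6 were called lower and 1 higher with VP64-MyoD, against 28.4% lower and 28.7% higher over all genes. Skeletal muscle markers were also present, with all 10 detected in each group. They summed to between 919 and 944 CPM with WT-MyoD and between 5097 and 5849 CPM with VP64-MyoD. In bulk RNA a larger share of converted cells and more RNA per converted cell cannot be told apart.

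The amount of transgene RNA was not the same in the groups. Mouse Myod1 stood at 762 and 1021 CPM in the WT-MyoD libraries and at 116 and 97.2 CPM in those of VP64-MyoD (log2 fold change -3.06 ± 0.24 SE, adjusted p = 3.5e-08 by edgeR). The VP64-MyoD libraries were thus the lower ones, without overlap, and the ratio of the mean levels was 8.35. The untreated libraries held 5.13 and 1.05 CPM. In every difference given below, the VP64 domain and the amount of transgene RNA cannot be told apart.

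Of the 15281 genes, 4390 were higher with VP64-MyoD, which is 28.7% of those tested, and 4345 were lower, which is 28.4% (edgeR quasi-likelihood test, adjusted p under 0.05). Called genes with a change over 4-fold numbered 585 in the higher direction, 3.83% of the genes tested, and 345 in the lower direction, 2.26%. The median log2 fold change over all genes was 0.02. Both VP64-MyoD libraries lay above both WT-MyoD libraries in 40.1% of the genes tested and below them in 38.4%, so a lack of overlap is common too. With 57.2% of all genes called in either direction, a call on a single gene is common in this comparison. The counts for gene lists below are therefore read against these shares. Of the 585 genes higher by over 4-fold, 45 had no count in either WT-MyoD library, and 168 had none in either untreated library. Of the 345 lower ones, 12 had no count in either VP64-MyoD library.

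**Figure D1:**
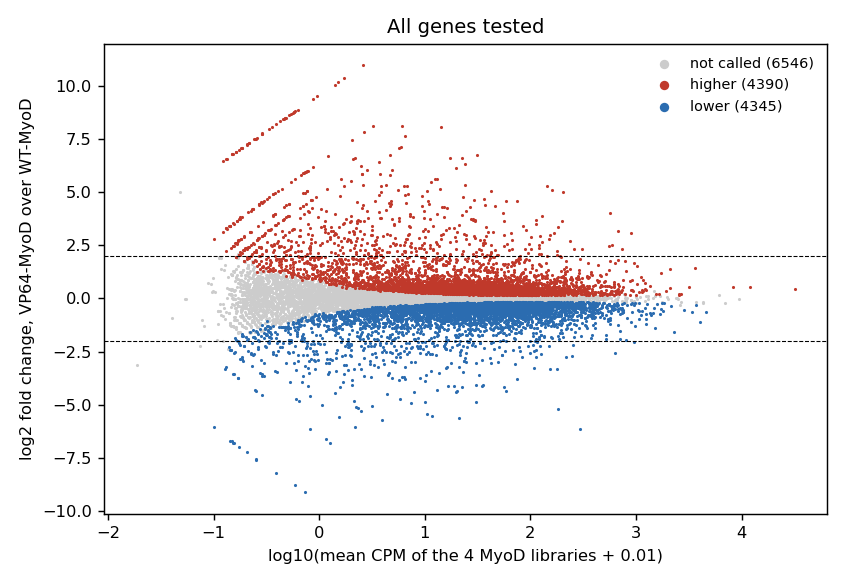
Log2 fold change of VP64-MyoD over WT-MyoD (vertical axis) against the log10 mean CPM of the 4 MyoD libraries plus 0.01 (horizontal axis). There is 1 point per gene tested except the transgene, coloured by call, with dashed lines at 4-fold. The 4390 higher and 4345 lower genes spread over the whole range of levels, and the diagonal streaks at the left are genes with few or no counts in 1 group.

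Of 36 gene lists, those of muscle contraction had the highest medians and that of interferon effectors the lowest. The list medians ran from -1.13 for interferon effectors to 2.59 for thick filament genes, and they are given list by list below.

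**Figure D2:**
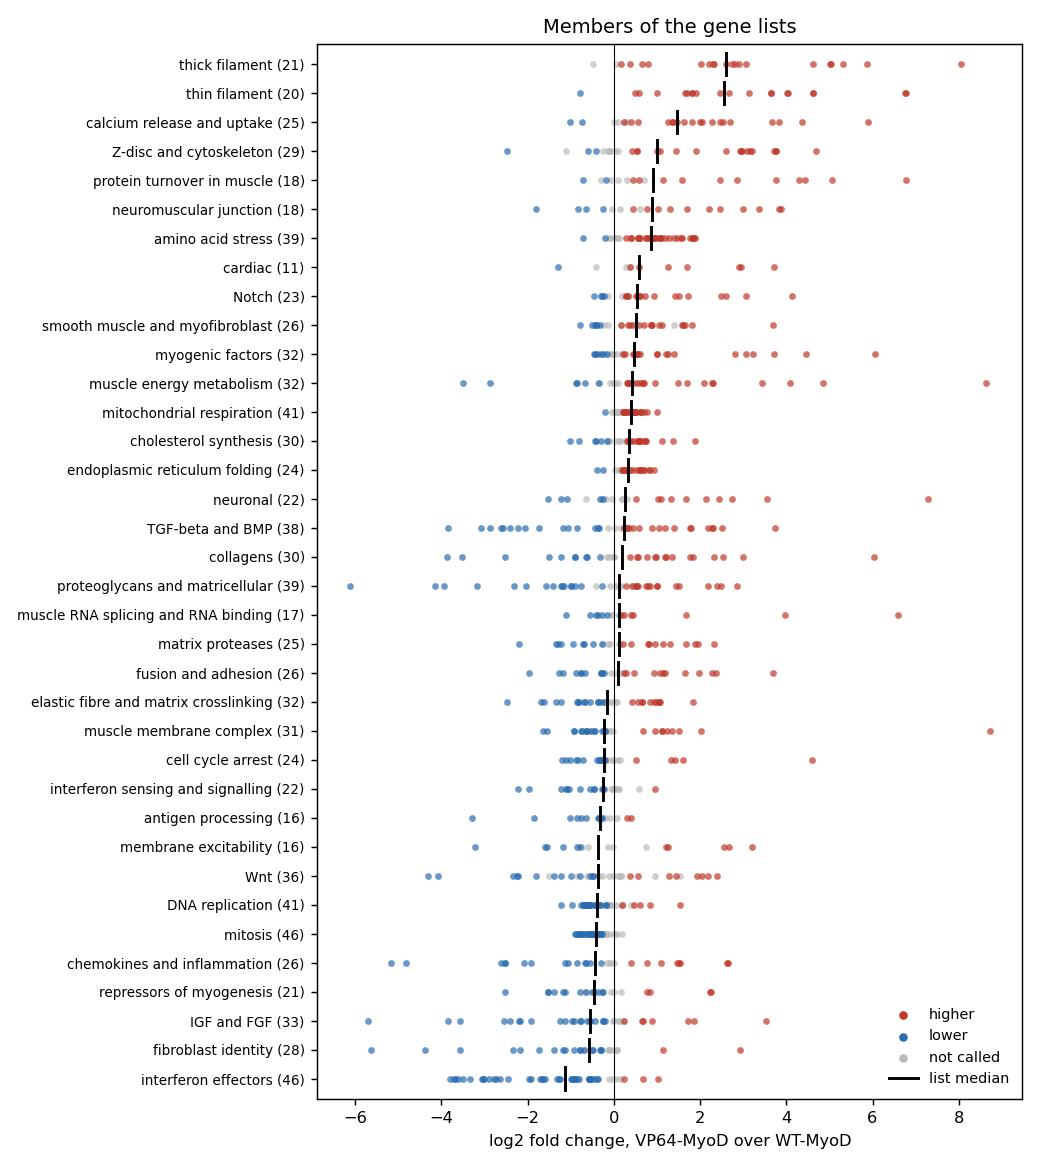
Log2 fold changes of VP64-MyoD over WT-MyoD (horizontal axis) for the tested members of 36 gene lists (vertical axis, number tested in parentheses), 1 point per gene and a black bar at the list median. Thick filament members lie almost entirely to the right of 0, interferon effectors almost entirely to the left, and matrix lists spread to both sides.

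The first group is the transcription factors through which MyoD acts. MyoD switches on MYOG and the MEF2 factors, which then act with it on muscle genes, while EYA coactivators act upstream and TEAD factors bind beside them. Of the 32 tested members, 19 were higher, 6 lower and 7 not called (median log2 fold change 0.46, against 0.02 over all genes).

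MYOG, the factor of terminal differentiation, stood at 283 and 241 CPM with VP64-MyoD against 38.9 and 35.9 CPM in the WT-MyoD libraries (log2 fold change 2.81 ± 0.08 SE, adjusted p = 3.5e-13 by edgeR). SMYD1, a muscle histone methyltransferase, stood at 220.1 and 196 CPM against 16.3 and 15.6 CPM (log2 fold change 3.70 ± 0.09 SE, adjusted p = 6.1e-14 by edgeR). VGLL2, a muscle partner of TEAD factors, reached 5.76 and 5.42 CPM, whereas the WT-MyoD libraries held 0.142 and 0 CPM (log2 fold change 6.05 ± 0.42 SE, adjusted p = 1.3e-08 by edgeR). Its fold depended on the WT-MyoD library used, with a log2 fold change of 11.02 without WT-MyoD replicate 1 and 5.26 without WT-MyoD replicate 2. TEAD4, the TEAD factor of differentiating myoblasts, stood at 56.2 and 54 CPM against 22.4 and 23.5 CPM (log2 fold change 1.27). HES6, a promoter of myogenesis, stood at 122 and 111 CPM against 14.6 and 13.2 CPM, and PITX3, a homeobox factor of muscle, at 28.7 and 25.3 CPM against 10.3 and 10.2 CPM. LBX1, a homeobox gene of migrating muscle precursors, rested on 47 read pairs with VP64-MyoD and 2 with WT-MyoD, a ratio of 23.3 (95% exact conditional interval 6.09 to 197.6, counting error only).

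The other members of this group follow. MEF2C stood at 95.4 and 92.9 CPM against 61.6 and 61.4 CPM (log2 fold change 0.61 ± 0.06 SE, adjusted p = 5.4e-07 by edgeR), while MEF2D, at 260.4 and 237 CPM against 232 and 269.7 CPM, was not called (edgeR adjusted p = 0.92). MEF2A was lower by a small amount (log2 fold change -0.26) and MEF2B was not called. Of the homeobox factors, SIX2 and SIX4 were higher (log2 fold changes 1.21 and 0.48) and SIX5 was lower (log2 fold change -0.47). EYA2, a transcriptional coactivator, stood at 4.03 and 4.08 CPM against 2.13 and 1.91 CPM. The abundant TEAD1, at 477 and 491 CPM against 459.9 and 529.8 CPM, was not called, though without WT-MyoD replicate 1 it was (log2 fold change -0.13, edgeR adjusted p = 0.0388). TEAD3, ZBTB18 and RUNX1 were higher by 0.54, 0.56 and 0.51 on the log2 scale, and VGLL3 and KLF5 lower (log2 fold changes -0.39 and -0.29). The E proteins are the partners with which MyoD binds DNA. TCF3 and TCF4 were not called, TCF4 being called without WT-MyoD replicate 2 (log2 fold change 0.15, edgeR adjusted p = 0.0252). TCF12 was higher (log2 fold change 0.25), though not without VP64-MyoD replicate 1 (log2 fold change 0.22, edgeR adjusted p = 0.0607). EYA3 was higher (log2 fold change 0.21), but not without VP64-MyoD replicate 1 (edgeR adjusted p = 0.0519) or replicate 2 (edgeR adjusted p = 0.173). VGLL4 was lower (log2 fold change -0.17), and its call was lost with no filter on low counts, with only the 4 MyoD libraries fitted, and without either VP64-MyoD or either untreated library (edgeR adjusted p from 0.0523 to 0.247). EYA1 rested on 29 read pairs with VP64-MyoD and 3 with WT-MyoD, a ratio of 9.56 (95% exact conditional interval 2.97 to 49.1). TEAD2 was not called, and neither was PAX3, a factor of muscle precursors, which was called as lower without VP64-MyoD replicate 1 (log2 fold change -0.65, edgeR adjusted p = 0.00918). MYF5, MYF6, PAX7, EYA4 and BARX2 did not pass the filter. Human MYOD1 stood at 6.45 and 7.5 CPM against 3.3 and 3.72 CPM; its counts were 0.394% of those of the mouse transgene with WT-MyoD and 6.53% with VP64-MyoD, and whether transgene reads were counted there was not tested.

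**Figure D3:**
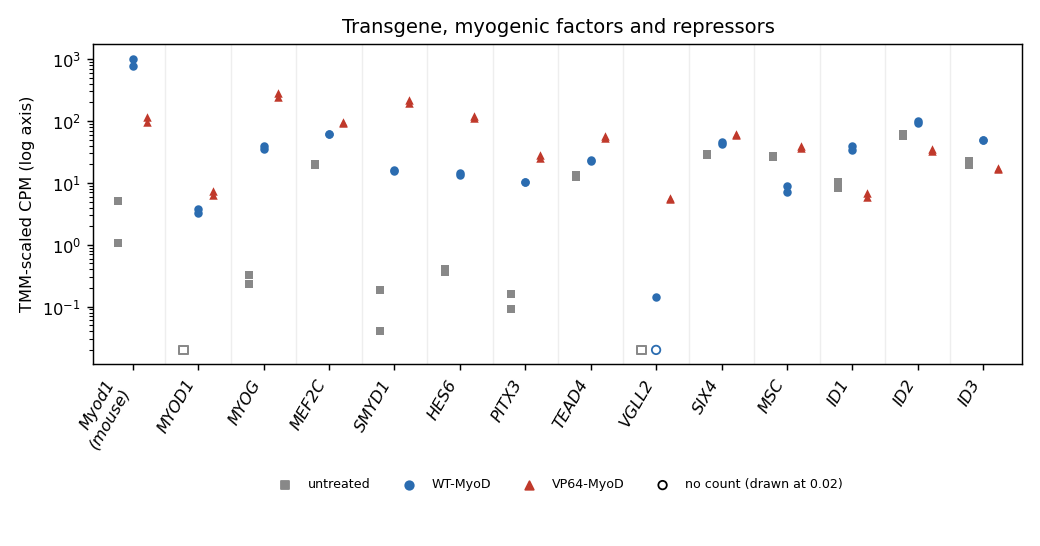
CPM on a log axis for the mouse transgene, 9 myogenic factors and cofactors and 4 repressors or inhibitors of myogenesis, 1 point per library (squares untreated, circles WT-MyoD, triangles VP64-MyoD; open symbols mark no count). The transgene and the 3 ID genes are lower with VP64-MyoD, whereas MYOG, SMYD1 and HES6 are higher in both of its libraries.

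Inhibitors of myogenesis include the ID proteins, which bind E proteins and keep them from DNA, and class IIa histone deacetylases, which hold MEF2 inactive. Of the 21 tested members, 4 were higher, 13 lower and 4 not called (median log2 fold change -0.45). ID1 stood at 5.84 and 6.92 CPM with VP64-MyoD against 39.6 and 34.4 CPM in the WT-MyoD libraries (log2 fold change -2.53 ± 0.12 SE, adjusted p = 7.4e-11 by edgeR), and untreated cells held 10.4 and 8.32 CPM. ID3 stood at 17.3 and 17 CPM against 49.1 and 49.5 CPM, and ID2 at 32.7 and 35.1 CPM against 102 and 92.5 CPM. In each of these 3 genes the VP64-MyoD libraries lay below and the WT-MyoD libraries above the untreated ones. MSC, which encodes musculin, a repressor of myogenic factors, went the other way, at 36.6 and 39.2 CPM against 8.81 and 7.1 CPM (log2 fold change 2.24 ± 0.10 SE, adjusted p = 3.3e-11 by edgeR).

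Genes of the thick filament encode the myosin motor and its accessory proteins. Of the 21 tested members, 19 were higher, 0 lower and 2 not called (median log2 fold change 2.59), and 15 of those higher passed 4-fold. MYL11, the fast regulatory light chain formerly named MYLPF, stood at 295 and 269.6 CPM against 7.92 and 6.12 CPM (log2 fold change 5.31 ± 0.10 SE, adjusted p = 6.0e-15 by edgeR). MYBPC2, the fast myosin-binding protein C, stood at 31.3 and 24.9 CPM against 0.0711 and 0.147 CPM, and MYBPC1, its slow counterpart, at 5.02 and 4.92 CPM against 0.0711 and 0.0979 CPM. Both were close to absent with WT-MyoD. The 2 members not called were MYH7, the slow myosin heavy chain, and MYOM2, an M-band protein; both are named after their values were seen.

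Thin filament genes encode actin, tropomyosin, the troponin switch and the proteins that set filament length. Of the 20 tested members, 19 were higher, 1 lower and 0 not called (median log2 fold change 2.56). KLHL40, which stabilises nebulin, stood at 9.87 and 8.61 CPM against 0.107 and 0.0489 CPM (log2 fold change 6.77 ± 0.30 SE, adjusted p = 8.5e-11 by edgeR); its log2 fold change was 7.48 without WT-MyoD replicate 1. TNNC2, the calcium-binding subunit of fast troponin, stood at 65.9 and 57.8 CPM against 0.639 and 0.489 CPM, and the WT-MyoD level was near the untreated one of 0.323 and 0.274 CPM. TNNI2, fast troponin I, rested on 77 read pairs with VP64-MyoD and 3 with WT-MyoD, a ratio of 25.4 (95% exact conditional interval 8.37 to 125.8). LMOD1, the leiomodin of smooth muscle, was the lower member, at 22.9 and 22 CPM against 38.6 and 39.3 CPM and 71 and 76.7 CPM in untreated cells.

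The Z-disc anchors thin filaments of neighbouring sarcomeres. Of the 29 tested members, 18 were higher, 3 lower and 8 not called (median log2 fold change 1.01). LDB3, a PDZ and LIM protein that binds alpha-actinin, stood at 74.6 and 64.1 CPM against 2.81 and 2.54 CPM (log2 fold change 4.69 ± 0.11 SE, adjusted p = 6.1e-14 by edgeR). XIRP2, an actin-binding protein, stood at 17.9 and 18.3 CPM against 1.21 and 1.47 CPM, and MYOZ2, which links calcineurin to alpha-actinin, at 53.8 and 48.2 CPM against 3.77 and 3.82 CPM. HSPB7, a small heat shock protein of heart and skeletal muscle, moved the opposite way, at 34.6 and 31.1 CPM with VP64-MyoD against 181 and 185 CPM with WT-MyoD and 85.2 and 82.8 CPM in untreated cells (log2 fold change -2.48 ± 0.07 SE, adjusted p = 2.1e-13 by edgeR).

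**Figure D4:**
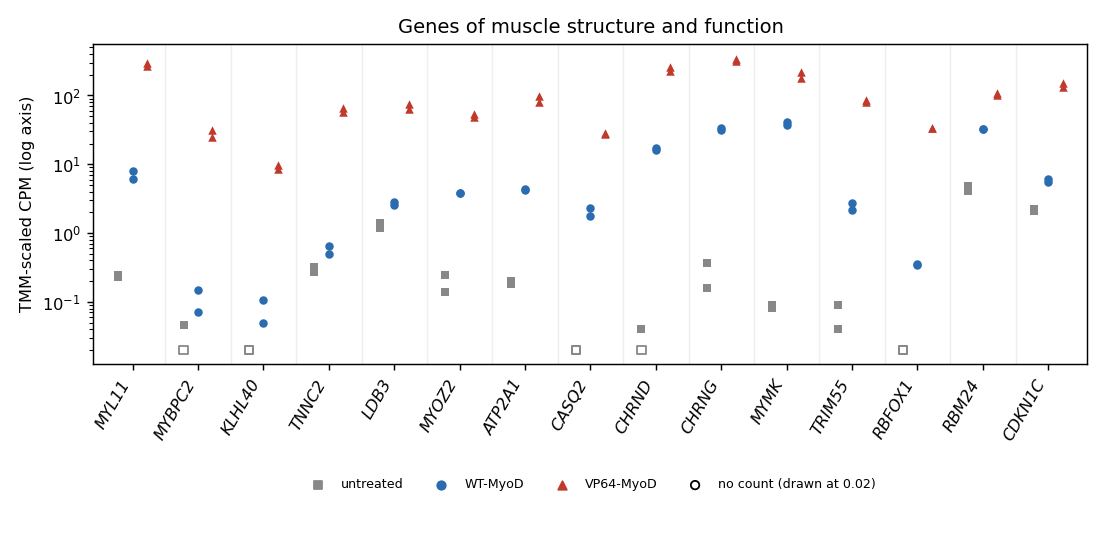
CPM on a log axis for 15 genes of muscle structure, calcium handling, receptors, fusion, protein turnover, RNA binding and cell cycle exit, 1 point per library (squares untreated, circles WT-MyoD, triangles VP64-MyoD; open symbols mark no count). For each gene both VP64-MyoD libraries lie above both WT-MyoD libraries, and the gap runs from log2 fold changes of 1.68 for RBM24 to 8.05 for MYBPC2.

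Promoters of the tested genes were read for E-boxes of the MyoD type (CAGCTG) and for a MEF2-like element (CTA and TAG with 4 bases between). Counts for a list take in all its tested members with a window, called or not and in either direction. Each window was the 250 bases before a RefSeq start site (GRCh38.p14), read on both strands. Of 17474 such windows, from 12025 of the tested genes, 13.7% held the E-box and 1.92% the MEF2-like element. These genes are 78.7% of those tested, under the 80% asked of a comparison, so the shares over all genes are given as a description and no enrichment is read from them. Of the 29 tested Z-disc genes, 24 had a window. Of these 24 genes, 10 held the E-box and 8 the MEF2-like element, against 18% and 2.66% of all genes with a window. E-boxes were not confined to lists with more members higher. Among lists below with more members lower and a window for at least 80% of genes, the E-box share varied. It ran from 0 of 13 antigen processing genes to 8 of 20 cell cycle arrest genes, with 11 of 37 interferon effectors between. Fewer than 80% of the thin filament (75.0%) and thick filament genes (66.7%) had a window, so the same count over those lists is void. The 4 windows shown are of genes higher with VP64-MyoD that held such matches, and capitals mark the E-boxes and MEF2-like elements. The last base of each is the one before the start site. KLHL40 lies at chr3:42685427-42685536, plus strand, MYL11 (the second of its 2 start sites) at chr16:30372184-30372293, plus strand, MYOZ2 at chr4:119135722-119135831, plus strand, and PITX3 at chr10:102241513-102241642, minus strand.
KLHL40: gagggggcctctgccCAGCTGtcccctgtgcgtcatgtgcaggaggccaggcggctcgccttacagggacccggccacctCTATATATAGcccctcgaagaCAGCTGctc
MYL11: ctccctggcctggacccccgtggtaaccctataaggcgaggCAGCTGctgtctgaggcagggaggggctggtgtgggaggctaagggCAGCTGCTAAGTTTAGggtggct
MYOZ2: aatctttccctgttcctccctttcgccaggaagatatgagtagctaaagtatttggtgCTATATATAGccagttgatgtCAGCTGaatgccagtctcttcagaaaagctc
PITX3: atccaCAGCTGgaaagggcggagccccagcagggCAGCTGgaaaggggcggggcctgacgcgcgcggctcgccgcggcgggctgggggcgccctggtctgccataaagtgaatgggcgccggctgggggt
KLHL40, MYL11 and MYOZ2 held both kinds of match within 110 bases of the start, and in MYL11 an E-box directly adjoins the MEF2-like element. PITX3 held 2 E-boxes and no MEF2-like element in the bases shown. A match is a description of the letters and not of binding.

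Calcium release couples the muscle membrane to contraction through the dihydropyridine receptor and the ryanodine receptor, and pumps return calcium to the store. Of the 25 tested members, 19 were higher, 2 lower and 4 not called (median log2 fold change 1.47). The pump ATP2A1 of fast fibres stood at 97.9 and 79.7 CPM against 4.37 and 4.26 CPM. CASQ2, a calcium-storage protein of the sarcoplasmic reticulum, stood at 27.9 and 28.4 CPM against 1.74 and 2.3 CPM (log2 fold change 3.82 ± 0.13 SE, adjusted p = 7.5e-12 by edgeR). JSRP1, a protein of the junctional membrane, rested on 68 read pairs with VP64-MyoD and 1 with WT-MyoD, a ratio of 67.3 (95% exact conditional interval 11.7 to 2696). SYPL2, a protein of the triad membrane also known as mitsugumin-29, was lower (log2 fold change -1.02).

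Membrane excitability genes, those of the sodium, potassium and chloride conductances, did not share a direction. Of the 16 tested members, 5 were higher, 6 lower and 5 not called (median log2 fold change -0.37). KCNJ2, an inward rectifier that sets the resting potential, stood at 1.13 and 1.35 CPM with VP64-MyoD, at 11.4 and 11.8 CPM with WT-MyoD and 3.75 and 5.03 CPM in untreated cells (log2 fold change -3.22 ± 0.17 SE, adjusted p = 2.9e-10 by edgeR). KCNN3, a calcium-activated potassium channel, stood at 53.7 and 50.5 CPM against 146 and 170.4 CPM, and KCNQ5, a voltage-gated one, at 38.1 and 40.2 CPM against 113 and 119 CPM. These 3 are named as the members that led the lower direction, and KCNN3 remained above its untreated 1.05 and 0.686 CPM. Of the other potassium channel genes tested in the list, KCNJ12 was higher (log2 fold change 2.56), while KCNA7 and KCNE3 were not called (edgeR adjusted p = 0.06 and 0.15; all 3 named after their values were seen). ATP1B4, a muscle protein related to the sodium pump beta subunits, was higher (log2 fold change 3.20).

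At the neuromuscular junction the acetylcholine receptor is clustered under the nerve ending by agrin, LRP4 and MuSK. Of the 18 tested members, 11 were higher, 4 lower and 3 not called (median log2 fold change 0.89). The receptor's delta subunit CHRND stood at 261 and 226 CPM against 17 and 16.3 CPM, and the fetal gamma subunit CHRNG at 344 and 322 CPM against 31.4 and 33.4 CPM (log2 fold change 3.36 ± 0.08 SE, adjusted p = 5.8e-14 by edgeR). ACHE, which breaks down acetylcholine, stood at 2.16 and 1.46 CPM against 0.0711 and 0.196 CPM; its log2 fold change of 3.83 became 3.19 without WT-MyoD replicate 1 and 4.60 without WT-MyoD replicate 2. LRP4, the agrin receptor, was lower at 61.7 and 58.9 CPM against 198 and 222 CPM (log2 fold change -1.80 ± 0.07 SE, adjusted p = 7.5e-12 by edgeR), so the clustering receptor and the receptor subunits differed in direction.

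Fusion and adhesion genes were divided. Of the 26 tested members, 12 were higher, 11 lower and 3 not called (median log2 fold change 0.09). MYMK, also known as myomaker, the membrane protein required for myoblast fusion, stood at 221 and 182 CPM against 41.8 and 36.6 CPM. MYOCD, a coactivator of serum response factor listed here and with smooth muscle, stood at 4.63 and 3.96 CPM against 0.284 and 0.392 CPM (log2 fold change 3.69 ± 0.28 SE, adjusted p = 1.6e-08 by edgeR), and ADGRB1, an adhesion receptor linked to myoblast fusion, at 1.78 and 0.884 CPM against 0.249 and 0.294 CPM. CDON, a cell-surface receptor that promotes myogenesis, stood at 20.3 and 21.3 CPM with VP64-MyoD, close to the untreated 16.8 and 16.5 CPM, and at 81.1 and 83.3 CPM with WT-MyoD.

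Genes of the dystrophin-glycoprotein complex, caveolae and basement membrane hold the fibre to its matrix. Of the 31 tested members, 9 were higher, 16 lower and 6 not called (median log2 fold change -0.22). DAG1, which encodes dystroglycan, stood at 363 and 362 CPM against 939.7 and 1182 CPM (log2 fold change -1.55 ± 0.09 SE, adjusted p = 1.0e-09 by edgeR). CAVIN2, a coat protein of caveolae, stood at 54.5 and 55.9 CPM against 173 and 170.3 CPM, and LAMB2, a laminin chain, at 589 and 540.4 CPM against 996 and 1155 CPM. ANO5, a muscle anoctamin, had no count with WT-MyoD or in untreated cells and stood at 1.21 and 1.000 CPM with VP64-MyoD, at least 17.9-fold higher when 3 read pairs over the group are taken as the floor of WT-MyoD.

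Muscle energy metabolism genes cover creatine kinase, glycogen use and adenylate turnover. Of the 32 tested members, 20 were higher, 6 lower and 6 not called (median log2 fold change 0.41). AMPD1, the adenylate deaminase of muscle, stood at 3.07 and 3.00 CPM against 0.0711 and 0.147 CPM. PPP1R3A, the glycogen-targeting subunit of protein phosphatase 1, had no count with WT-MyoD and stood at 1.13 and 0.923 CPM with VP64-MyoD, at least 16.6-fold higher. MB, which encodes myoglobin, rested on 19 read pairs with VP64-MyoD and 1 with WT-MyoD, a ratio of 18.8 (95% exact conditional interval 2.99 to 781). PDK4, a kinase that restrains pyruvate oxidation, was lower and rested on 24 read pairs with WT-MyoD and 2 with VP64-MyoD, a ratio of 12.1 (95% exact conditional interval 3.01 to 105.9).

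Nuclear genes of the respiratory chain were mostly higher, by small amounts. Of the 41 tested members, 30 were higher, 1 lower and 10 not called (median log2 fold change 0.39), and none changed over 4-fold. The number called higher depended on which library was left out, and it varied more widely there than under the other alternatives, where it ran from 28 to 31. CYCS, cytochrome c, stood at 57.5 and 61.5 CPM against 36.5 and 33 CPM (log2 fold change 0.77 ± 0.07 SE, adjusted p = 3.1e-07 by edgeR), and NDUFB9, an accessory subunit of complex I, at 20.4 and 20.8 CPM against 14.3 and 10.8 CPM. SDHA, of complex II, was the lower member (log2 fold change -0.21), but not without VP64-MyoD replicate 1 (edgeR adjusted p = 0.0681) or replicate 2 (edgeR adjusted p = 0.0772).

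Muscle ubiquitin ligases and their relatives control protein turnover. Of the 18 tested members, 11 were higher, 2 lower and 5 not called (median log2 fold change 0.91). TRIM55, a ligase that associates with the sarcomere, stood at 86.1 and 79.6 CPM against 2.74 and 2.15 CPM (log2 fold change 5.06 ± 0.11 SE, adjusted p = 2.5e-14 by edgeR). ASB2, a subunit of a ligase that targets filamins, stood at 22.8 and 18.8 CPM against 1.24 and 0.587 CPM; its log2 fold change of 4.44 became 5.14 without WT-MyoD replicate 1. FOXO1, a factor that raises atrophy genes, was lower at 39.4 and 36.2 CPM against 58.5 and 66.3 CPM. Of the 17 tested members, 7 were higher, 6 lower and 4 not called in the list of splicing and RNA-binding genes, and without VP64-MyoD replicate 2 only 4 of them were higher. RBFOX1, a splicing factor of muscle and neurons, stood at 33.7 and 34.2 CPM with VP64-MyoD, at 0.355 and 0.343 CPM with WT-MyoD and had no count in untreated cells (log2 fold change 6.59 ± 0.15 SE, adjusted p = 1.4e-13 by edgeR). RBM20, which controls titin splicing, stood at 15 and 12.1 CPM against 0.924 and 0.783 CPM, and RBM24 at 108 and 103 CPM against 33.1 and 32.6 CPM. MBNL3, a muscleblind protein linked to undifferentiated cells, was lower (log2 fold change -1.11).

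Most genes of mitosis and DNA replication were lower with VP64-MyoD, by modest amounts. Of the 46 tested members, 0 were higher, 32 lower and 14 not called in the mitosis list, against 28.4% lower over all genes (median log2 fold change -0.41). MKI67, a marker of cycling cells, stood at 142 and 144 CPM with VP64-MyoD, at 234 and 303 CPM with WT-MyoD and 42.7 and 46.3 CPM in untreated cells (log2 fold change -0.90 ± 0.09 SE, adjusted p = 6.0e-07 by edgeR). PRC1 and KIF20A, both of the mitotic spindle midzone, stood at 39.1 and 39.2 CPM against 72.4 and 71.7 CPM and at 29.4 and 29.8 CPM against 55.7 and 49.8 CPM. Both MyoD groups lay above the untreated level in these 3 genes, the VP64-MyoD libraries by less. Of the 41 tested members, 5 were higher, 25 lower and 11 not called in the list of DNA replication (median log2 fold change -0.39). POLE, the catalytic subunit of polymerase epsilon, was lower at 17.6 and 17.5 CPM against 36.3 and 45.4 CPM. E2F2, a factor of S-phase genes, and CCNE2, a cyclin of S-phase entry, were lower too (log2 fold changes -0.97 and -0.77), whereas GINS2, of the replicative helicase, was higher at 9.4 and 9.84 CPM against 3.48 and 3.13 CPM.

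The list of cell cycle arrest holds CDK inhibitors, pocket proteins and growth arrest genes together with D-type cyclins, their kinases and MDM2, which drive the cycle or oppose p53. Of the 24 tested members, 5 were higher, 13 lower and 6 not called (median log2 fold change -0.23), and the lower ones include CCND1, CCND3, CDK6 and MDM2 of the second kind (named after their values were seen). CDKN1C, which encodes the CDK inhibitor p57, was far from the rest, at 149.8 and 134 CPM with VP64-MyoD, at 6.04 and 5.58 CPM with WT-MyoD and 2.1 and 2.24 CPM in untreated cells (log2 fold change 4.61 ± 0.09 SE, adjusted p = 6.0e-15 by edgeR). GAS1, a growth arrest gene, stood at 111 and 114 CPM against 258 and 263 CPM. The INK4 inhibitors CDKN2D and CDKN2C stood at 5.15 and 5.42 CPM against 11.6 and 11.3 CPM and at 11.3 CPM in both libraries against 24.5 and 21.3 CPM, each with the VP64-MyoD libraries near the untreated level.

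Interferon effector genes formed the list with the lowest median. They are switched on when the factor complex ISGF3, which holds STAT2 and IRF9, binds the interferon-stimulated response element. Of the 46 tested members, 3 were higher, 39 lower and 4 not called (median log2 fold change -1.13); 14 of those lower passed 4-fold. MX1, an antiviral GTPase, stood at 12.4 and 7.42 CPM with VP64-MyoD, at 136 and 139.5 CPM with WT-MyoD and 3.96 and 3.29 CPM in untreated cells. OAS1, which senses double-stranded RNA, stood at 0.866 and 0.846 CPM against 12.4 and 10.03 CPM (log2 fold change -3.71 ± 0.22 SE, adjusted p = 1.3e-09 by edgeR), and CMPK2, a nucleotide kinase induced by interferon, at 0.433 and 0.461 CPM against 5.86 and 5.68 CPM. The list's median log2 fold change over untreated cells was 1.16 with WT-MyoD and 0.63 with VP64-MyoD, 2 comparisons that share the untreated libraries. ISG20, an exonuclease, was 1 of the 3 higher members at 0.996 and 0.923 CPM against 0.497 and 0.44 CPM, and its call was lost with DESeq2 (adjusted p = 0.0624) and without any 1 of the 4 libraries (edgeR adjusted p from 0.0546 to 0.11).

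Among sensors of viral RNA and the signalling chain, too, more genes were lower than higher. Of the 22 tested members, 1 was higher, 13 lower and 8 not called (median log2 fold change -0.26). IFIH1, the sensor MDA5, stood at 6.54 and 4.34 CPM against 25.2 CPM in both libraries and 11.6 and 11.8 CPM in untreated cells (log2 fold change -2.22 ± 0.14 SE, adjusted p = 1.4e-09 by edgeR). DHX58, its regulator, stood at 6.62 and 6.27 CPM against 24.6 and 26.1 CPM, and STAT2 at 121 and 112 CPM against 263 and 287 CPM. These 3 genes lay below the untreated level with VP64-MyoD and above it with WT-MyoD. IFNAR2, a subunit of the type I interferon receptor, was higher (log2 fold change 0.96). Of the 16 tested members, 2 were higher, 11 lower and 3 not called in the list of antigen processing (median log2 fold change -0.33). CD74, the invariant chain of class II molecules, stood at 0.173 and 0.115 CPM against 1.67 and 1.13 CPM. CIITA, the class II activator, was lower (log2 fold change -1.85), but not without WT-MyoD replicate 1 or either VP64-MyoD replicate (edgeR adjusted p from 0.05 to 0.0818). HLA-E, a non-classical class I molecule whose reads can be shared with its close relatives, stood at 174 and 163 CPM against 341 and 344 CPM, and the proteasome activator PSME2 was higher (log2 fold change 0.40).

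The interferon-stimulated response element was searched as a pair of GAAA with 2 bases between, on both strands, with overlapping matches counted, in the same windows of 250 bases. It was found in 2.54% of the 17474 windows and in 3.47% of all genes with a window. Of the 46 tested interferon effectors, 37 had a window and 26 of these held the element, and among the 13 antigen processing genes with a window 8 did. Under 80% of the sensing and signalling genes had a window (63.6%), which voids that count. Shown are ISG15 and IFIT1, effectors picked for their matches after their values were seen, and IFIH1, each with the element in capitals. ISG15 was at 12.3 and 8.04 CPM against 32.6 and 31.7 CPM, and IFIT1 at 10.3 and 6.15 CPM against 62.6 and 59.7 CPM. Their windows lie at chr1:1013367-1013496, plus strand for ISG15, at chr10:89392493-89392622, plus strand for IFIT1 and at chr2:162318685-162318854, minus strand for IFIH1.
ISG15: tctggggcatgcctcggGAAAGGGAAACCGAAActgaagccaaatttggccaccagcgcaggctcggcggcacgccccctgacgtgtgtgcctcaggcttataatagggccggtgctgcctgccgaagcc
IFIT1: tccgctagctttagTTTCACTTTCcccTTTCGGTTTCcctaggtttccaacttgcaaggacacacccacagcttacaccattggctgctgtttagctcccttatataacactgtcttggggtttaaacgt
IFIH1: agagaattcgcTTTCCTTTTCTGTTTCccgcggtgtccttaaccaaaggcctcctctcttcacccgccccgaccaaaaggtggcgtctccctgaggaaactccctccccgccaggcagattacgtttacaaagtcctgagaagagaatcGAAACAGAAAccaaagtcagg
In ISG15 and in the distal part of IFIH1 overlapping matches merge into 1 run, and in IFIT1 a pair of matches on the other strand lies 3 bases apart. The amino acid response element was searched in 1 form only, TGATGNAAT, which was found in 0.521% of all windows and in 0.690% of all genes with a window. Of the 32 amino acid stress genes with a window, 1 held this form. Forms that end in a base other than T were not searched, so the count does not show how many of these genes hold the element.

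Most amino acid stress genes, which the factor ATF4 controls, were higher with VP64-MyoD. Of the 39 tested members, 31 were higher, 2 lower and 6 not called (median log2 fold change 0.87). The median over untreated cells was -1.13 with WT-MyoD and -0.43 with VP64-MyoD, with the untreated libraries shared. CTH, an enzyme of cysteine synthesis, stood at 10.04 and 11.5 CPM with VP64-MyoD, at 3.09 and 2.69 CPM with WT-MyoD and 11.8 and 10.7 CPM in untreated cells. TRIB3, a pseudokinase induced by ATF4, stood at 121 and 119 CPM, 36.9 and 28.7 CPM and 230.2 and 211 CPM in the same sequence (log2 fold change 1.87 ± 0.09 SE, adjusted p = 1.2e-10 by edgeR). VEGFA, a growth factor of blood vessels, stood at 115 and 114 CPM, 32.2 and 32.3 CPM and 111 and 113 CPM. In CTH and VEGFA the VP64-MyoD libraries were near the untreated level and in TRIB3 below it, with WT-MyoD the lowest group in all 3. SLC38A2, an amino acid transporter, went the other way (log2 fold change -0.72). Of the 24 tested members, 19 were higher, 2 lower and 3 not called in the list of protein folding in the endoplasmic reticulum (median log2 fold change 0.33), none of them over 4-fold. HERPUD1, of protein degradation at that membrane, stood at 119 and 117 CPM against 63.8 and 60.1 CPM, and the co-chaperone DNAJB11 at 84.6 and 86.6 CPM against 51.2 and 45.1 CPM. MANF, a secreted factor of the folding response, was higher (log2 fold change 0.81). ERN1, the sensor IRE1, was lower (log2 fold change -0.39), but not without WT-MyoD replicate 2 (edgeR adjusted p = 0.0765) or VP64-MyoD replicate 2 (edgeR adjusted p = 0.0831).

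Cholesterol and fatty acid synthesis genes were higher in most cases. Of the 30 tested members, 17 were higher, 6 lower and 7 not called (median log2 fold change 0.34). IDI1, an isomerase of the mevalonate pathway, stood at 132 and 120.3 CPM against 37.9 and 30.8 CPM (log2 fold change 1.87 ± 0.09 SE, adjusted p = 5.6e-11 by edgeR). STARD4, a sterol carrier, and MSMO1, a sterol oxidase, were higher by 1.38 and 1.12 on the log2 scale, whereas LSS, which forms lanosterol, was lower (log2 fold change -1.03).

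Matrix genes spread in both directions. Of the 30 tested members, 15 were higher, 10 lower and 5 not called in the collagen list (median log2 fold change 0.20). COL4A1, a basement membrane collagen, stood at 994 and 1039 CPM with VP64-MyoD, at 174 and 179 CPM with WT-MyoD and 911 and 850.2 CPM in untreated cells (log2 fold change 2.53 ± 0.07 SE, adjusted p = 2.1e-13 by edgeR). COL7A1, of anchoring fibrils, stood at 96 and 103 CPM against 11.9 and 13.4 CPM, and COL19A1, a rare collagen found in developing muscle, at 10.3 and 9.03 CPM against 0.142 and 0.147 CPM. COL6A6, a chain of microfibrillar collagen VI, was lower at 1.26 and 1.31 CPM against 16.9 and 20.8 CPM. COL4A1 thus lay above the untreated level with VP64-MyoD and far under it with WT-MyoD.

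Of the 32 tested members, 11 were higher, 15 lower and 6 not called in the list of elastic fibres and crosslinking (median log2 fold change -0.17). ELN, elastin, stood at 23.4 and 24.9 CPM with VP64-MyoD, at 132 and 139 CPM with WT-MyoD and 1186 and 1188 CPM in untreated cells. FBLN2, a fibulin, and LTBP3, which binds latent TGF-beta, stood at 246 and 248 CPM against 779 and 827 CPM and at 97.2 and 96.5 CPM against 279 and 317 CPM. These 3 genes formed a descending series from untreated cells to WT-MyoD to VP64-MyoD. PLOD2, a lysyl hydroxylase that sets collagen crosslinks, did not: it stood at 464 CPM in both libraries against 130.4 and 129 CPM (log2 fold change 1.84 ± 0.06 SE, adjusted p = 1.4e-12 by edgeR).

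Of the 39 tested members, 16 were higher, 16 lower and 7 not called in the list of proteoglycans and matricellular proteins (median log2 fold change 0.11). HAPLN1, which links hyaluronan to aggrecan, stood at 9.87 and 8.57 CPM against 1.31 and 1.22 CPM, and CCN4, a matricellular target of Wnt signalling, at 90.7 and 98 CPM against 17 and 16.9 CPM. Both lay under their untreated levels of 90.8 and 83.8 CPM and 198 and 204 CPM. BCAN, brevican, a proteoglycan of brain, was higher (log2 fold change 2.38), with a log2 fold change of 1.46 without WT-MyoD replicate 1 and 4.18 without WT-MyoD replicate 2, and was not called by DESeq2 (adjusted p = 0.111). TNXB, a tenascin of skin and joints whose reads a near-identical pseudogene can share, stood at 7.88 and 8.77 CPM with VP64-MyoD, at 461 and 709.7 CPM with WT-MyoD and 514 and 479 CPM in untreated cells (log2 fold change -6.13 ± 0.17 SE, adjusted p = 2.1e-13 by edgeR). Of the 25 tested members, 11 were higher, 9 lower and 5 not called in the list of proteases and their inhibitors (median log2 fold change 0.11). The aggrecanase ADAMTS4 was higher at 55.6 and 53.5 CPM against 11.2 and 10.6 CPM and MMP11, a stromelysin, at 70.2 and 73 CPM against 17.8 and 19.6 CPM, as was ADAMTS12 at 144 and 143 CPM against 37.5 and 40.7 CPM, while ADAMTS5, another aggrecanase, was lower at 89.5 and 89.4 CPM against 364 and 463 CPM.

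Most fibroblast identity genes were lower with VP64-MyoD. Of the 28 tested members, 2 were higher, 18 lower and 8 not called (median log2 fold change -0.59). CLEC3B, tetranectin, stood at 0.823 and 0.846 CPM against 42.1 and 40.8 CPM and 5.81 and 5.44 CPM in untreated cells (log2 fold change -5.63 ± 0.12 SE, adjusted p = 2.4e-14 by edgeR). OSR2, a transcription factor of connective tissue, stood at 0.953 and 0.500 CPM against 15.7 and 14.2 CPM, and PI16, a marker of a fibroblast subset, at 5.2 and 4.84 CPM against 56.1 and 63.9 CPM. In CLEC3B and OSR2, WT-MyoD was the highest group and VP64-MyoD the lowest. SCARA5, a ferritin receptor, rested on 24 read pairs with VP64-MyoD and 3 with WT-MyoD, a ratio of 7.92 (95% exact conditional interval 2.40 to 41.1). Smooth muscle and myofibroblast genes were more often higher. Of the 26 tested members, 16 were higher, 6 lower and 4 not called (median log2 fold change 0.51), with TPM2, beta-tropomyosin, at 1523 and 1369 CPM against 469 and 452 CPM and TPM1 at 1048 and 1059.7 CPM against 309 and 289 CPM; this list shares tropomyosins with the thin filament list.

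**Figure D5:**
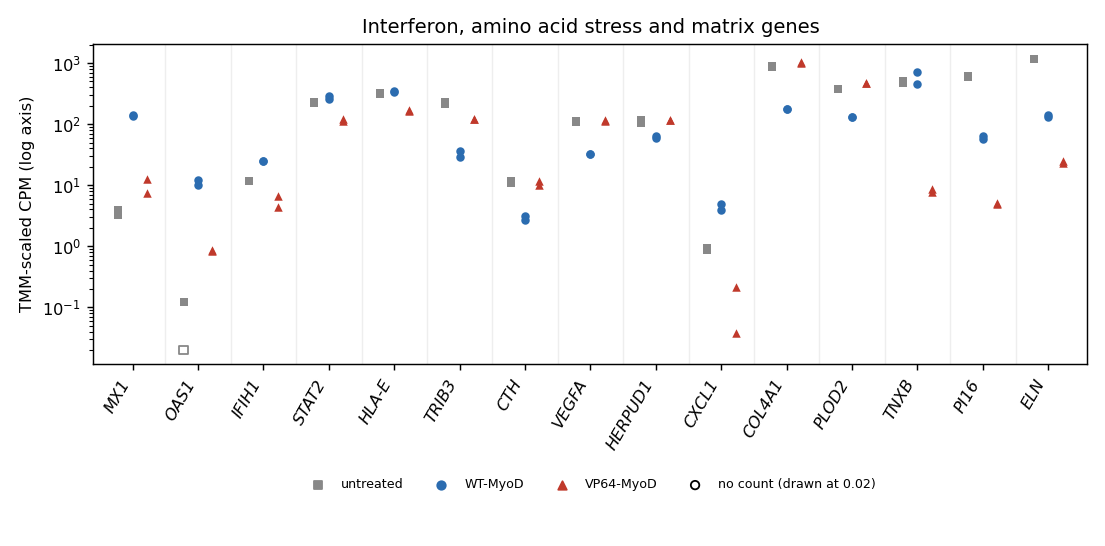
CPM on a log axis for 15 genes of the interferon, antigen, amino acid stress, chemokine, matrix and fibroblast lists, 1 point per library (squares untreated, circles WT-MyoD, triangles VP64-MyoD). MX1, OAS1, IFIH1, STAT2 and HLA-E are highest with WT-MyoD, TRIB3, CTH, VEGFA and HERPUD1 are lowest with WT-MyoD, and TNXB, PI16 and ELN are lowest with VP64-MyoD.

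Secreted signals differed gene by gene. Of the 38 tested members, 18 were higher, 15 lower and 5 not called in the list of TGF-beta and BMP genes (median log2 fold change 0.24). INHBE, an inhibin chain, stood at 20.6 and 20.9 CPM against 1.63 and 1.47 CPM (log2 fold change 3.73 ± 0.12 SE, adjusted p = 1.3e-12 by edgeR). BMPR1B, a BMP receptor, and PMEPA1, an inhibitor of TGF-beta signalling that the pathway itself induces, stood at 18.7 and 19 CPM against 3.23 and 3.43 CPM and at 103 and 104 CPM against 21.2 and 21.1 CPM. The ligand BMP4 was lower at 0.216 and 0.308 CPM against 3.73 and 3.96 CPM, with VP64-MyoD near its untreated level of 0.0807 and 0.274 CPM.

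Notch signalling passes between neighbouring cells and restrains myogenic differentiation. Of the 23 tested members, 16 were higher, 4 lower and 3 not called in the Notch list (median log2 fold change 0.54). The ligand JAG2 stood at 49.3 and 43 CPM against 2.74 and 2.5 CPM (log2 fold change 4.13 ± 0.11 SE, adjusted p = 1.9e-13 by edgeR), and the receptor NOTCH2 was slightly lower (log2 fold change -0.47). NRARP, an inhibitor that Notch induces, was called higher from 13 read pairs against 2, a ratio of 6.43 (95% exact conditional interval 1.46 to 58.7). That call was lost with DESeq2 (adjusted p = 0.0852) and with no filter on low counts (edgeR adjusted p = 0.0643). It was also lost without WT-MyoD replicate 1 or either VP64-MyoD replicate. The list also holds HES6, given above.

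Of the 33 tested members, 7 were higher, 21 lower and 5 not called in the list of IGF and FGF genes (median log2 fold change -0.56). IGFBP1, an IGF-binding protein of liver, stood at 0.173 and 0.115 CPM against 7.89 and 7.34 CPM (log2 fold change -5.71 ± 0.31 SE, adjusted p = 3.6e-10 by edgeR). FGF9, a growth factor that inhibits myoblast differentiation, stood at 0.736 and 0.73 CPM against 9.45 and 11.7 CPM and 25.8 and 27.3 CPM in untreated cells, and IGFBP2 at 0.173 and 0.192 CPM against 2.17 and 2.25 CPM. IGF2, the fetal growth factor made by differentiating muscle cells, was higher at 3.07 and 3.15 CPM against 0.284 and 0.245 CPM. Of the 36 tested members, 8 were higher, 13 lower and 15 not called in the Wnt list (median log2 fold change -0.38), where 58.3% were called against 57.2% of all genes. SFRP1, a secreted Wnt antagonist, stood at 3.94 and 2.92 CPM against 61 and 54.8 CPM, and RSPO3, a Wnt agonist, at 1.52 and 2.77 CPM against 10.2 and 11.9 CPM. RSPO1, another agonist, rested on 22 read pairs with WT-MyoD and 1 with VP64-MyoD, a ratio of 22.2 (95% exact conditional interval 3.59 to 917.7). LEF1, a transcription factor of the pathway, was higher at 1.21 and 1.42 CPM against 0.178 and 0.343 CPM.

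Of the 26 tested members, 8 were higher, 14 lower and 4 not called in the list of chemokines and inflammation (median log2 fold change -0.43). CXCL1, a neutrophil chemokine, stood at 0.216 and 0.0384 CPM against 5.01 and 3.96 CPM (log2 fold change -5.17 ± 0.38 SE, adjusted p = 1.2e-08 by edgeR). Its log2 fold change was -6.78 without VP64-MyoD replicate 1 and -4.36 without VP64-MyoD replicate 2. CXCL6 rested on 60 read pairs with WT-MyoD and 2 with VP64-MyoD, a ratio of 30.3 (95% exact conditional interval 8.04 to 256), and IL6R, the interleukin-6 receptor, stood at 3.29 and 3.23 CPM against 18.9 and 20.9 CPM. IL11, a cytokine of fibroblasts, was higher at 11.9 and 10.6 CPM against 1.71 and 1.91 CPM.

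Genes of other tissues were fewer past the filter. Of 37 neuronal genes listed, 22 were tested; 10 were higher, 5 lower and 7 not called (median log2 fold change 0.25). STMN2, a tubulin regulator of growing neurons, stood at 66.8 and 60.4 CPM against 9.66 and 9.2 CPM (log2 fold change 2.75 ± 0.09 SE, adjusted p = 7.4e-13 by edgeR), and SEZ6, a neuronal membrane protein, at 4.16 and 4.11 CPM against 0.32 and 0.392 CPM. NLGN1, a synaptic adhesion protein, was lower at 13.6 and 13.5 CPM against 37.8 and 41.2 CPM. Of 22 cardiac genes listed, 11 were tested; 7 were higher, 1 lower and 3 not called. ANKRD1, a titin-binding protein of stretched muscle, stood at 234 and 203 CPM against 29.2 and 27.1 CPM, MYL4, the atrial and fetal light chain, at 188 and 172 CPM against 25.8 and 22.6 CPM, and CSRP3, muscle LIM protein, at 3.46 and 3.15 CPM against 0.213 and 0.294 CPM. All 3 are also expressed in developing skeletal muscle. HAND2, a cardiac transcription factor, was lower (log2 fold change -1.31), and 11 cardiac genes, among them the natriuretic peptides NPPA and NPPB, did not pass the filter (named after their values were seen). MYT1L, a neuronal zinc finger factor, had no count with WT-MyoD and 0.216 and 0.577 CPM with VP64-MyoD, at least 6.42-fold higher, but was not called by DESeq2 (adjusted p = 0.242).

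Markers of other cell types were low. Of 8 blood markers, 4 had no count with WT-MyoD and 3 none with VP64-MyoD, and the 8 together summed to between 179 and 183 CPM with WT-MyoD, between 46.1 and 47.6 CPM with VP64-MyoD and between 69.3 and 70.9 CPM in untreated cells. Nearly all of that was CD68, a lysosomal protein, while the pan-leukocyte gene PTPRC stayed at or under 1.69 CPM. The 8 epithelial markers summed to between 22.6 and 25.7 CPM with WT-MyoD and between 8.69 and 9.57 CPM with VP64-MyoD, with 1 and 0 at no count. The 7 endothelial markers summed to between 16.0 and 16.1 CPM with WT-MyoD and between 27.8 and 31.5 CPM with VP64-MyoD, with none at 0. CLDN5, a tight junction claudin, was the main riser among them, from 0.817 and 0.832 CPM to 10.5 and 8.23 CPM (named after its values were seen). Adipocyte markers (6 genes) and melanocyte and nerve markers (6 genes) summed to no more than 4.55 and 4.09 CPM in these libraries. Their part in the differences above was not tested.

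The genes at the extremes were mostly ones of low level, with few or no counts in 1 of the groups. Among the 10 with the highest fold changes, each had no count with WT-MyoD. KCNQ1, a potassium channel of heart and epithelia, stood at 5.54 and 4.88 CPM with VP64-MyoD, at least 84.4-fold higher. PVALB, parvalbumin, a calcium buffer of fast muscle fibres and interneurons, stood at 3.51 and 3.31 CPM, at least 55.2-fold higher, and FOXS1, a forkhead transcription factor, at 3.25 and 2.77 CPM, at least 48.7-fold higher. SPRR2G and KRTAP16-1, genes of skin and hair epithelium whose families hold close copies, stood at 2.94 and 2.61 CPM and 2.08 and 1.73 CPM. The others were DNAH9, a dynein of cilia, UCN2, a peptide of the urocortin family, LRRC30, a leucine-rich repeat protein, IGLL5, which lies in the immunoglobulin lambda region, and PLA2G4D, a phospholipase. They stood between 0.769 and 1.95 CPM, and PLA2G4D was not called by DESeq2 (adjusted p = 0.142).

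Among the 10 with the lowest fold changes, UNC13C, a protein of synaptic release, and SUCNR1, the succinate receptor, had no count with VP64-MyoD. They stood at 1.39 and 1.52 CPM and 0.959 and 1.37 CPM with WT-MyoD, at least 23.8-fold and 19.1-fold lower with VP64-MyoD. PENK, the enkephalin precursor, rested on 122 read pairs with WT-MyoD and 1 with VP64-MyoD, a ratio of 123.3 (95% exact conditional interval 21.7 to 4910.0). ADH1B, an alcohol dehydrogenase, went from 5.25 and 6.26 CPM in untreated cells to 2.13 and 2.45 CPM with WT-MyoD and 0 and 0.0384 CPM with VP64-MyoD. Its ratio between the forms was 111.2 (95% exact conditional interval 19.5 to 4431). VIT, vitrin, a matrix protein, and KCNS2, a modifier of potassium channels, rested on 3 read pairs each with VP64-MyoD, with ratios of 69.4 (95% exact conditional interval 23.4 to 339) and 48.5 (16.3 to 238). LINC00163, a long non-coding RNA, had 76 and 1 read pairs. TNXB, CLEC3B and IGFBP1, given above, complete the set. For genes with 1 to 3 read pairs in a group, the fitted fold depended on the library kept. Without VP64-MyoD replicate 1 or replicate 2 the log2 fold change of PENK was -5.94 or -9.90, of ADH1B -5.80 or -9.75, of LINC00163 -5.28 or -9.23, of RSPO1 -3.47 or -7.43 and of PDK4 -7.58 or -2.47. It was -6.70 for VIT and -6.19 for KCNS2 without VP64-MyoD replicate 1. Without WT-MyoD replicate 1 or replicate 2 it was 9.0 or 5.17 for JSRP1, 7.18 or 3.35 for MB, 7.78 or 2.42 for EYA1, 2.29 or 3.67 for SCARA5 and 1.41 or 6.72 for NRARP.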

How the data were processed

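Read counts per RefSeq transcript, not normalized, were deposited by the authors for 6 libraries. The submitters' processing notes name CASAVA, Bowtie 0.12.9, DESeq 1.10.1 and hg19; the counting step is not given in the sources used here. Every deposited count is even. Libraries were made by transposase, which leaves strand unmarked, so reads where genes overlap could belong to either gene.

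Of 40710 rows, 39324 were matched to symbols through RefSeq (GRCh38.p14) and 516 through GENCODE 29; 869 rows without a symbol, between 0.601% and 0.745% of a library's counts, were left out. Rows were summed per gene and tested with edgeR 4.0.16 (R 4.3.3): TMM, filterByExpr (minimum count 10, total 15), 1 quasi-likelihood fit of all 6 libraries (3 residual degrees of freedom), two-sided, Benjamini-Hochberg adjusted p under 0.05. The SE of a log2 fold change was its size divided by the square root of F. No list was given a set test. In simulated VP64-MyoD against WT-MyoD data over 15281 genes, 84.0% of 1.5-fold, 100% of 2-fold and 100% of 4-fold changes were recovered. The changes were put only into genes with a mean count over 100 in the MyoD libraries. All genes and groups were given 1 common spread. Recovery at lower counts, or with a spread that differs by gene or group, was not tested.

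Per the series' design text the 2 libraries of a group are biological duplicates; with 1 line, p-values reflect differences among its cultures only. Named genes were the 10 highest and 10 lowest fold changes (called, mean count at least 40 in the higher group, no overlap), up to 3 called members per list in the leading direction and 1 in the other, all measured myogenic factors and the transgene; a few of these genes are not reported here. Sex-linked marker genes were not named. Members, lists and rule were chosen with earlier results of these data known. Alternatives were DESeq2 1.42.0, limma-voom (limma 3.58.1), other scalings and filters, halved counts, a fit of 4 libraries, a replicate block, leaving out each library, and, chosen after seeing the data, keeping rows without a symbol. The authors' deposited table of comparisons with untreated cells was not used. Intervals and floors cover counting error only.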

Additional observations from a re-analysis of the deposited data

How the results depend on the processing

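Over 16 alternatives, 654 of 656 values of the 41 main results (counts of calls, list counts and the transgene) were the same. A count was the same if it stayed within 1.5 times the main one, and the transgene if its sign and call held. For lists, only the leading direction of the main fit was compared, so a change of lead was not checked. The exceptions were the genes higher by over 4-fold, 388 with a filter of 1 CPM in 2 libraries, which tests fewer genes (13428), and the higher members of the splicing list, between 4 and 7 without 1 library (4 without VP64-MyoD replicate 2; the cause was not tested). Without 1 library, higher calls ranged from 3399 to 4541 and lower calls from 3483 to 4467. The replicate numbers were treated as labels only. Differences between replicates 1 and 2 did not correlate between WT-MyoD and VP64-MyoD (r = 0.00447 across 15282 genes, which are not independent replicates). A batch acting on few genes, or differently in each group, would leave no such correlation, so a shared batch is not excluded. With the replicate block, 4372 genes were higher and 4322 lower, and the transgene's log2 fold change was -3.08. Of 2910 values of named genes, 31 lost and 4 gained the call, and none changed sign where the main fit or the alternative called the gene. Changes of sign in genes that neither fit called were not counted. Genes of low level are limited by depth: at these totals 3 read pairs over a group correspond to about 0.0618 CPM with WT-MyoD and 0.0611 CPM with VP64-MyoD.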
